A study of Mus musculus with 6 samples.

Results

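The homeobox genes described here are 88 protein-coding genes whose symbols begin with Hoxa, Hoxb, Hoxc, Hoxd, Lhx, Irx, Dlx or Nkx, or which are numbered genes of the Pax or sine oculis families. The rule reads symbols alone, and the families were picked with earlier results of these data known. The genes come from 21980 protein-coding genes and 55573 gene identifiers in all. RNA-Seq libraries came from C57BL/6J mice, adults of both sexes per the study's methods, and no further allele is named for either group. Mice of the GFP group received adeno-associated virus AAV2-*GFP* in the vitreous, and mice of the Ezh2 group received AAV2-*Ezh2*. Both groups had an optic nerve crush, 2 weeks after the virus and 3 days before cells were collected. Per the study's methods, viable cells positive for CD90.2, which *Thy1* encodes, were sorted from dissociated retinas as retinal ganglion cells (RGCs), which send their axons through the optic nerve to the brain. A library holds every cell that passed the sort, whether or not it carried the virus. There were 3 GFP libraries and 3 Ezh2 libraries with 30569933 to 35971192 counts each, and the labels do not say whether each came from separate animals.

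Homeobox genes encode transcription factors that bind DNA through a homeodomain and give cells of the embryo their position and type. Ezh2 is the catalytic subunit of the PRC2 complex of the Polycomb group, whose product, trimethylated lysine 27 of histone H3, marks repressed chromatin. The Hox clusters and many other homeobox genes are textbook targets of this complex in cells where they are silent, and Polycomb targets in mammals typically lie in DNA rich in CG pairs. In the eye, *Pax6*, *Lhx2*, *Six3* and *Six6* specify the eye field, and some of them stay on in the mature retina.

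Several library-wide values bear on these genes. Levels are given in CPM, the count per 1000000 counts of the library, and values of 3 libraries stand in the order of replicates 1 to 3. *Ezh2* reached 28.8, 34.6 and 33 CPM with AAV2-*GFP* and 78, 65.3 and 104.8 CPM with AAV2-*Ezh2*, so every Ezh2 library exceeded every GFP library. The study left out 1 Ezh2 library, inferred to be Ezh2 replicate 3, and the main comparison therefore used GFP replicates 1 to 3 with Ezh2 replicates 1 and 2. Ezh2 replicate 3 stood apart here as well, with a summed level of 9 T cell markers of 962.6 CPM, where the other 5 ranged from 439.7 to 594.8 CPM. Some homeobox genes known from RGCs had few counts. *Pou4f2* and *Isl2* had 0 to 3 and 1 to 5 counts, and *Pou4f1* had 0 to 19, whereas *Isl1* had 215 to 356. The 11 ganglion cell markers listed lay between 1.73 CPM (*Sncg*) and 113.8 CPM (*Thy1*), with *Rbpms* at 16.4 to 20.8 CPM. *Rlbp1*, a marker of Muller glia, lay at 956.0 to 1535.4 CPM. The levels below belong to the sorted cells as a whole.

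Most of the homeobox genes were below detection at this depth. With detection set at 10 or more counts in at least 2 of the 6 libraries, 19 of the 88 genes were detected, or 21.6%, compared with 68.9% of all protein-coding genes. Of the other 69 genes, 35 had 0 counts in all 6 libraries and 34 had some counts without reaching the threshold. At 0 counts the level may still be as high as 3 counts, or 0.0834 to 0.0981 CPM by library, from counting error only. *Dlx3*, which acts in skin and tooth development, lay just inside the threshold with 4, 10 and 9 counts in the GFP group and 10, 11 and 20 in the Ezh2 group. *Irx2*, a patterning factor of the Iroquois family, lay just outside it with 6, 13 and 8 counts in the GFP group and 3, 3 and 0 in the Ezh2 group.

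**Figure D1:**
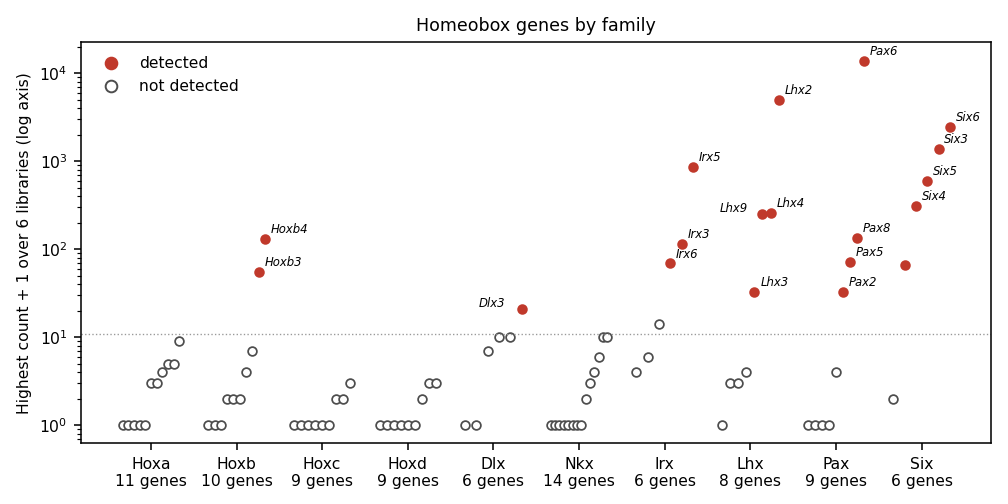
Highest count plus 1 over the 6 libraries (log axis) for each of the 88 homeobox genes, by family, with the number of genes under each family name. Filled points are the 19 detected genes and open points the 69 others, and the dotted line marks 10 counts. No gene of the Hoxa, Hoxc, Hoxd or Nkx families was detected.

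Detection was uneven between families. The Hox clusters, which pattern the body axis from hindbrain to tail, held 39 of the genes. Of these, 20 had 0 counts in all libraries and 37 were not detected, with no count above 8 among those 37. No gene was detected among 11 of Hoxa, 9 of Hoxc and 9 of Hoxd. Hoxb was the exception, with *Hoxb3* and *Hoxb4* detected among 10 genes. None of the 14 Nkx genes, which pattern the ventral neural tube, heart and gut, was detected, and 8 of them were at 0 throughout. Dlx genes, known from forebrain interneurons and the skeleton of the face, had 1 detected gene of 6. By contrast, 5 of 6 sine oculis genes, 4 of 8 Lhx genes, 4 of 9 Pax genes and 3 of 6 Irx genes were detected.

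The residual signal of the undetected genes was compared between the groups by its sums. The 69 undetected genes summed to 44, 49 and 38 counts in the GFP group and to 46, 29 and 28 counts in the Ezh2 group. The groups overlapped, through Ezh2 replicate 1. Hoxa genes summed to 6, 2 and 3 counts in the GFP group and to 21, 5 and 3 counts in the Ezh2 group, the first of which included 8 counts of *Hoxa3* and 4 of *Hoxa5*. Nkx genes summed to 5, 21 and 11 counts in the GFP group and to 3, 4 and 1 counts in the Ezh2 group, so that each Ezh2 library lay below each GFP library. Of these, *Nkx1-2* had 9 counts in GFP replicate 2 alone. Dlx genes summed to 12, 13 and 11 counts in the GFP group and to 17, 19 and 38 in the Ezh2 group. These sums were separate only with the detected *Dlx3* counted, and the undetected Dlx genes alone overlapped. Among them *Dlx2*, known from interneurons and retina, was at 0 in each GFP library and had 4, 3 and 9 counts in the Ezh2 group. *Dlx1* had 2, 3 and 2 counts against 0, 2 and 9, and *Dlx4* had 6, 0 and 0 against 3, 3 and 0. Both overlapped over the 6 libraries. *Dlx3* was tested with all 6 libraries, where its log2 fold change was 0.72 ± 0.56 (SE) at an edgeR Benjamini-Hochberg adjusted p of 0.451. These families were picked out after their values were seen, their sums were not tested, and a decrease of a gene already at 0 was not detectable.

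The CG content of the gene starts was examined because Polycomb targets typically lie in such DNA. RefSeq windows of 300 bases (250 before and 50 after a RefSeq start of the gene, build GRCm38.p6) were matched by symbol for 57 of the 88 genes. The window nearest the annotated gene start was taken, with no limit on distance. Some windows lay far from it, such as those of *Hoxc4* (15461 bases), *Hoxd4* (10049) and *Lhx4* (9657). The 43 undetected homeobox genes with a window had a median of 17 CG pairs, against 2 in 4751 other undetected protein-coding genes and 20 in 11706 other detected ones. A ratio of observed to expected CG above 0.6 was found in 58.1% of the undetected homeobox genes, in 8.55% of other undetected genes, in 67.0% of other detected genes and in 50.1% of all 16514 windows. Detected homeobox genes, 14 with a window, had a median of 16 CG pairs. In this feature the undetected homeobox genes lay near detected genes and apart from other undetected genes, as a description without a test. CG pairs read the same on both strands, and their number says nothing about whether PRC2 binds.

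**Figure D2:**
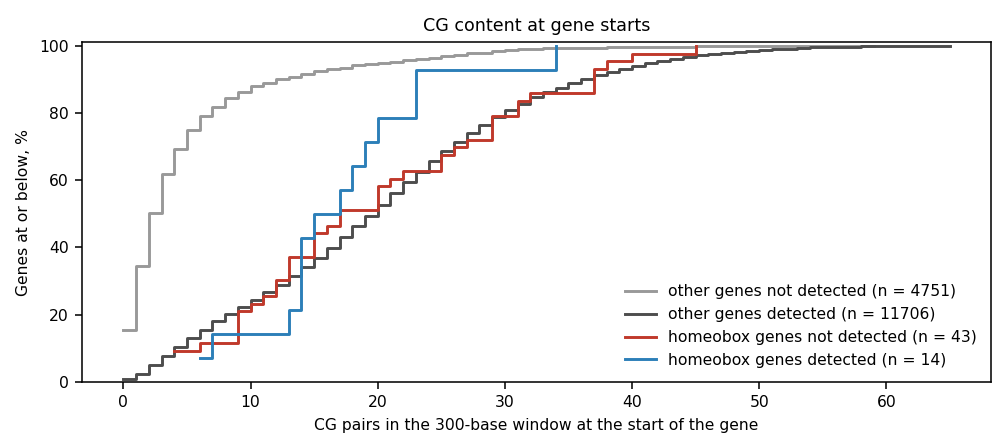
Cumulative share of genes (%) by the number of CG pairs in the 300-base window at a RefSeq start of the gene, for homeobox genes and other protein-coding genes, each split by detection. The curve of the 43 undetected homeobox genes follows that of the 11706 other detected genes, and the curve of the 4751 other undetected genes rises far to the left of it.

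The windows of 4 genes are shown to set an undetected gene beside abundant ones. *Hoxb4* is the homeobox gene with the lowest adjusted p among those that rose, *Lhx2* and *Pax6* are the most abundant, and *Hoxa13*, a gene of limb and hindgut patterning, is the gene at 0 in all libraries with the most CG pairs. Each sequence is the 250 bases before the RefSeq start, written 5′ to 3′ along the gene, with CG pairs in capitals. They lie at chr11:96318017-96318266 (plus strand) for *Hoxb4*, chr2:38339031-38339280 (plus strand) for *Lhx2*, chr2:105668646-105668895 (plus strand) for *Pax6* and chr6:52260881-52261130 (minus strand) for *Hoxa13*, all in GRCm38.p6. They hold 14, 25, 15 and 35 CG pairs, in that order. *Hoxa13* was picked for its number of CG pairs, and other undetected genes, such as *Hoxd11* and *Lhx8*, have 4 in the 300-base window.
Hoxb4: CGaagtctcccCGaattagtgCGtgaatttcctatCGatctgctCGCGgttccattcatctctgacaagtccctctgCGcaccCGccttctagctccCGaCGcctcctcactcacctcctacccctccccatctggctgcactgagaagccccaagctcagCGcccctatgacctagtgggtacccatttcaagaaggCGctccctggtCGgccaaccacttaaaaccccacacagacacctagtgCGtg
Lhx2: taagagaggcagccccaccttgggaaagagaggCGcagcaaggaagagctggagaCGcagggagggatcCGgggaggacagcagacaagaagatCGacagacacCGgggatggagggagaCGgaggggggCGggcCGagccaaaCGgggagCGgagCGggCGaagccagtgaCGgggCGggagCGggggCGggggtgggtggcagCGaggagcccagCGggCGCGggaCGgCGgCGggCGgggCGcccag
Pax6: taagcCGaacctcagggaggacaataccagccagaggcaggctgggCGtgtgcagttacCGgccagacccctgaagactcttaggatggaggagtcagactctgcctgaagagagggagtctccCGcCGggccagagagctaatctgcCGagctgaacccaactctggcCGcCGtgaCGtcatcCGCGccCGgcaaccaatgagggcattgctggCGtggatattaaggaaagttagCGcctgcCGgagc
Hoxa13: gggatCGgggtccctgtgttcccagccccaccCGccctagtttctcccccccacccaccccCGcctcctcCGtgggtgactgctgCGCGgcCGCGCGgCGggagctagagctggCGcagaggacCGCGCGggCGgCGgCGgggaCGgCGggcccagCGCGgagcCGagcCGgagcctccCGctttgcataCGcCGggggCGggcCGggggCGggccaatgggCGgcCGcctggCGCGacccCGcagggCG

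Among the detected genes, the eye field factors dominated. *Pax6*, *Lhx2*, *Six6* and *Six3* together held 89.0% to 90.6% of all counts of the 88 genes in each library, and *Pax6* alone held 55.6% to 56.3%. Corrected for exon length, the mean level over all 6 libraries was 35.4 CPM per kilobase for *Pax6*, 32.3 for *Lhx2*, 16.9 for *Six6*, 7.93 for *Irx5*, 7.22 for *Six3* and 5.49 for *Six5*. The other 13 detected genes lay between 0.123 and 0.961 CPM per kilobase, with *Hoxb4* at the top of that range and *Dlx3* at its bottom. All 88 genes together summed to 802.5, 784.1 and 790.4 CPM in the GFP group and to 719.2, 708.9 and 629.4 CPM in the Ezh2 group, which is lower in each Ezh2 library.

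Next, the Ezh2 and GFP groups were compared by gene. Of the 19 detected genes, 18 passed the filter on low counts and were tested, *Dlx3* being the exception. A call needed an adjusted p below 0.05 together with more than a 1.5-fold difference, in the edgeR quasi-likelihood test over all 20241 tested genes with Benjamini-Hochberg adjustment. *Hoxb3* and *Hoxb4* were called higher, 2 of 18 genes, where 2.52% of all tested genes were called higher. No homeobox gene was called lower by edgeR or by DESeq2, where 1.28% of all tested genes were called lower by edgeR. At an unadjusted edgeR p under 0.05, 2 of the 18 genes were higher and 5 lower, beside 15.5% and 13.8% of all tested genes. *Lhx2* and *Pax6* fell at an adjusted p under 0.05 without reaching the fold change, a rule that took in 7.68% of all tested genes in the lower direction. The median log2 fold change of the 18 genes was -0.048, with 9 positive and 9 negative, beside -0.0078 over all tested genes. When all 6 libraries were used, edgeR called 0 homeobox genes, with 6 at an unadjusted p under 0.05. Among the 19732 genes of that fit, calls in either direction made up 2.52%, and 24.5% passed the unadjusted threshold.

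**Figure D3:**
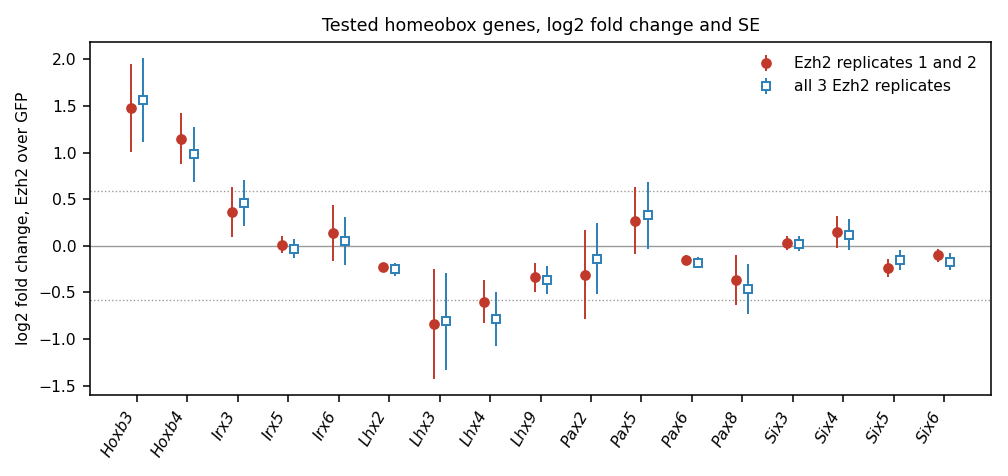
Log2 fold change of the Ezh2 over the GFP group with its SE for tested homeobox genes, ordered by family. Circles use Ezh2 replicates 1 and 2 and squares all 3 Ezh2 replicates, and dotted lines mark a fold change of 1.5. Points of *Hoxb3* and *Hoxb4* lie above the upper line in both.

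*Hoxb3* and *Hoxb4* are neighbours in the Hoxb cluster, where they pattern the hindbrain, and *Hoxb4* is also known from blood stem cells. *Hoxb4* (ENSMUSG00000038692, chromosome 11, 96318267 to 96321638, plus strand) had 70, 39 and 47 counts in the GFP group and 130, 119 and 83 counts in the Ezh2 group. In CPM these were 2.29, 1.23 and 1.53 against 4.04, 3.4 and 2.31. Every Ezh2 library lay above every GFP library, but Ezh2 replicate 3 exceeded GFP replicate 1 by a margin far smaller than the spread within either group. Compared to 1.68 ± 0.545 CPM (SD, n = 3) in the GFP group, the mean of Ezh2 replicates 1 and 2 was 3.72 ± 0.453 CPM (SD, n = 2). The edgeR log2 fold change came to 1.15 ± 0.27 (SE), or 2.22-fold, at an edgeR Benjamini-Hochberg adjusted p of 0.00265. With Ezh2 replicate 3 it was 0.98 ± 0.30 (SE) at an adjusted p (edgeR) of 0.0941, which ended the call. Leaving out any 1 of the 5 libraries kept the call, with edgeR adjusted p values of 0.000561 to 0.0441.

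*Hoxb3* (ENSMUSG00000048763, chromosome 11, 96323326 to 96347930, plus strand) rested on fewer reads, with 11, 27 and 8 counts in the GFP group and 51, 41 and 54 in the Ezh2 group. These were 0.360, 0.853 and 0.260 CPM against 1.58, 1.17 and 1.5 CPM, and here Ezh2 replicate 3 lay within the range of the other Ezh2 libraries. The groups did not overlap. The means were 0.491 ± 0.317 CPM (SD, n = 3) and 1.38 ± 0.292 CPM (SD, n = 2). The edgeR log2 fold change came to 1.48 ± 0.47 (SE), or 2.80-fold, at an edgeR Benjamini-Hochberg adjusted p of 0.0247. With all 6 libraries it was 1.56 ± 0.45 (SE) at an adjusted p (edgeR) of 0.0793. The call was also lost when Ezh2 replicate 1 (edgeR adjusted p = 0.198), Ezh2 replicate 2 (0.0547), GFP replicate 1 (0.0636) or GFP replicate 3 (0.108) was left out, and it held without GFP replicate 2 (0.00393).

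The neighbours of these genes in the cluster gave almost no reads. *Hoxb2*, *Hoxb8* and *Hoxb13* were at 0 in all 6 libraries, *Hoxb1*, *Hoxb5*, *Hoxb6* and *Hoxb7* had at most 3 counts, and *Hoxb9* had 6, 4 and 2 counts in the GFP group and 0, 0 and 4 in the Ezh2 group. No other Hoxb gene had enough reads to be tested. *Hoxb3os*, an antisense gene that overlaps *Hoxb3* exons, was at 0 in all libraries. RefSeq windows were matched for *Hoxb4* but not for *Hoxb3*. Markers of several cell types were also higher in Ezh2 replicates 1 and 2. Of 9 T cell markers, 8 had an adjusted p under 0.05 in the higher direction by edgeR with Benjamini-Hochberg adjustment, and 1 of them was called, and no marker of the list was at 0. Their summed level was 469.8, 460.2 and 439.7 CPM in the GFP group and 594.8, 561.9 and 962.6 CPM in the Ezh2 group. The library with the highest T cell level, Ezh2 replicate 3, had the lowest *Hoxb4* of the Ezh2 group, while its *Hoxb3* lay between those of the other Ezh2 libraries. By the same test, 8 of 8 cone markers, 7 of 9 rod markers, 5 of 11 ganglion cell markers and 6 of 8 microglia and macrophage markers had an adjusted p under 0.05 in the higher direction. Cone markers summed to 28.8 to 29.0 CPM in the GFP group and to 66.7, 58.1 and 38.8 CPM in the Ezh2 group. The part of any of these cells in the *Hoxb3* and *Hoxb4* values was not tested.

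**Figure D4:**
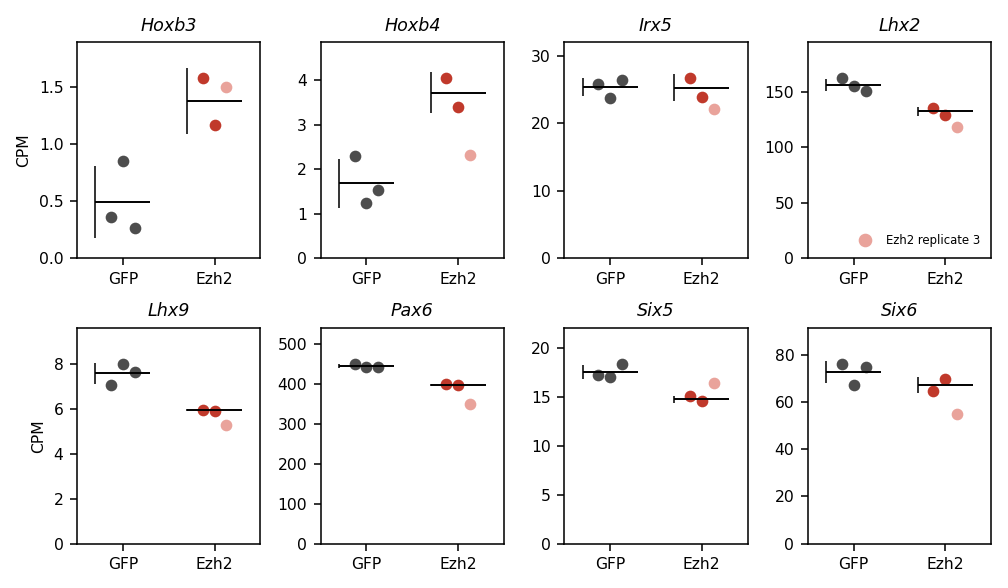
CPM per library for 8 homeobox genes, with the mean (horizontal line) and SD (vertical line) of GFP replicates 1 to 3 and of Ezh2 replicates 1 and 2. Pale points are Ezh2 replicate 3, which does not enter the mean. Ezh2 libraries lie above all GFP libraries for *Hoxb3* and *Hoxb4* and below them for *Lhx2*, *Lhx9*, *Pax6* and *Six5*.

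The 4 tested Lhx genes, which combine a homeodomain with LIM domains, all had log2 fold changes below 0. *Lhx2* (ENSMUSG00000000247, chromosome 2, 38339281 to 38369733, plus strand), which is needed for eye formation and is active in Muller glia, reached 162.1, 155.1 and 150.8 CPM in the GFP group. In Ezh2 replicates 1 to 3 it reached 135.3, 129.4 and 118.3 CPM, so all Ezh2 libraries were lower. The edgeR log2 fold change came to -0.23 ± 0.05 (SE), or 0.855-fold, at an edgeR Benjamini-Hochberg adjusted p of 0.00216. With all 6 libraries it was -0.25 ± 0.07 (SE) at an adjusted p (edgeR) of 0.0560. *Lhx9*, known from gonad and brain development, had 7.07, 7.99 and 7.65 CPM against 5.96, 5.91 and 5.28 CPM without overlap, at a log2 fold change of -0.34 ± 0.16 (SE) and an adjusted p (edgeR) of 0.152. *Lhx4*, a factor of pituitary and retinal cells, had 4.22, 8.09 and 7.16 CPM against 3.88, 4.62 and 2.53 CPM, and GFP replicate 1 lay inside the Ezh2 range. Its log2 fold change was -0.60 ± 0.23 (SE) at an adjusted p (edgeR) of 0.0715. *Lhx3*, which acts in pituitary and motor neurons, had 9 to 32 counts per library and a log2 fold change of -0.84 ± 0.59 (SE), the largest in size among genes not called. The 4 Lhx genes had a median log2 fold change of -0.47, and of -0.58 with all 6 libraries. *Lhx1*, *Lhx5*, *Lhx6* and *Lhx8* were not detected.

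Of the Pax genes, which carry a paired domain, *Pax6* was the most abundant of the 88. *Pax6* (ENSMUSG00000027168, chromosome 2, 105668900 to 105697364, plus strand), the master regulator of eye development that persists in amacrine cells, RGCs and Muller glia, reached 449.8, 441.6 and 442.2 CPM in the GFP group. It reached 399.9, 396.6 and 350.3 CPM in the Ezh2 group, all below the GFP libraries. The edgeR log2 fold change came to -0.15 ± 0.05 (SE), or 0.903-fold, at an edgeR Benjamini-Hochberg adjusted p of 0.0309. The adjusted p of *Pax6* rose above 0.05 in edgeR when all 6 libraries were used (0.114) and when Ezh2 replicate 1 (0.0749), GFP replicate 1 (0.116), GFP replicate 2 (0.0912) or GFP replicate 3 (0.0570) was left out. *Pax2*, a factor of the optic stalk and its astrocytes, *Pax5*, which sets B cell identity, and *Pax8*, known from thyroid and kidney, were detected at 17 to 135 counts per library. Their log2 fold changes were -0.31 ± 0.48 (SE), 0.27 ± 0.36 (SE) and -0.37 ± 0.27 (SE), and the groups overlapped for each of them. *Pax1*, *Pax3*, *Pax4* and *Pax7* were at 0 in all libraries, and *Pax9* had 3 counts in a single library.

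Most listed markers of Muller glia were lower in the Ezh2 group, as were *Lhx2* and *Pax6*. Of 8 Muller glia markers, 7 had an edgeR adjusted p under 0.05 in the lower direction with Benjamini-Hochberg adjustment, although none passed the fold change of 1.5 in edgeR or in DESeq2. The remaining marker, *Sox9*, had a log2 fold change of 0.11 ± 0.05 (SE) at an adjusted p (edgeR) of 0.187. No marker of the list was at 0. The median log2 fold change of the list was -0.26, and its summed level was 19000.8 to 19680.9 CPM in the GFP group, 14853.8 and 15219.3 CPM in Ezh2 replicates 1 and 2, and 11939.8 CPM in Ezh2 replicate 3. Per 1000 Muller glia marker counts, *Lhx2* stood at 8.25, 8.16 and 7.66 counts in the GFP group and at 9.11, 8.50 and 9.91 in the Ezh2 group. On the same scale *Pax6* stood at 22.9, 23.2 and 22.5 against 26.9, 26.1 and 29.3. On this scale both genes were higher in each Ezh2 library, but *Glul*, an enzyme of glutamine synthesis, made up 45.3% to 50.4% of the marker counts. Without *Glul*, *Lhx2* stood at 16.6, 16.4 and 15.3 against 17.1, 15.5 and 18.2, so the groups overlapped. *Pax6* then stood at 46.1, 46.7 and 44.9 against 50.5, 47.7 and 53.9, without overlap. Of 10 tested amacrine markers, 3 had an edgeR adjusted p under 0.05 in the lower direction and 1 in the higher. The amacrine list had summed levels of 663.1 to 702.1 CPM in the GFP group and 576.0, 550.0 and 475.2 CPM in the Ezh2 group. In bulk libraries, fewer cells of a type and less RNA per cell cannot be told apart, and the part of Muller glia and amacrine cells in the *Lhx2* and *Pax6* values was not tested.

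**Figure D5:**
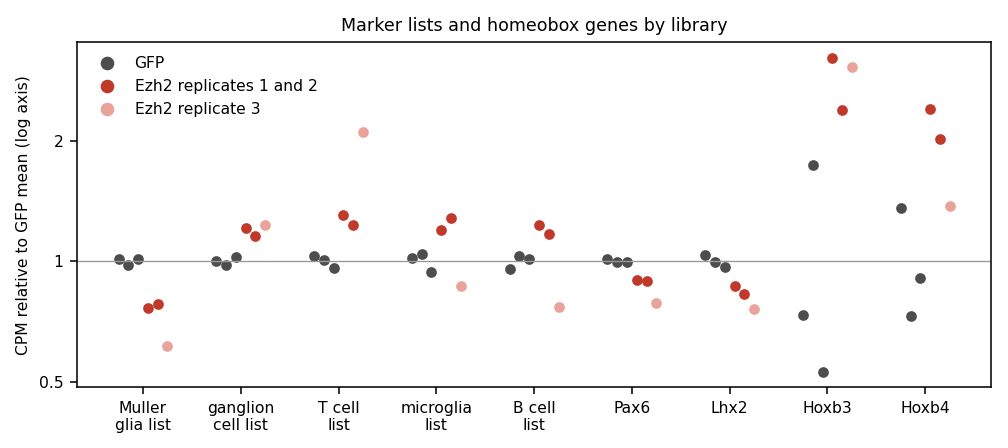
CPM in each library relative to the mean of the 3 GFP libraries (log axis) for the summed markers of 5 cell types and for *Pax6*, *Lhx2*, *Hoxb3* and *Hoxb4*. In Ezh2 libraries the Muller glia list, *Pax6* and *Lhx2* lie below 1, and the T cell list, *Hoxb3* and *Hoxb4* lie above it. The microglia and B cell lists are below 1 in Ezh2 replicate 3 and above it in the other Ezh2 libraries.

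The sine oculis genes, named after their relative in the fly, had a family median log2 fold change of 0.03, and of 0.02 with all 6 libraries. This median turned to -0.039 without Ezh2 replicate 1 and to -0.125 without Ezh2 replicate 2, and from all 6 libraries to between -0.120 and -0.032 without Ezh2 replicate 1, Ezh2 replicate 2 or GFP replicate 3. *Six6* (ENSMUSG00000021099, chromosome 12, 72939892 to 72944899, plus strand), an eye field gene of retina and optic chiasm, reached 76.2, 67.3 and 75 CPM against 64.8, 69.7 and 54.8 CPM. The groups overlapped, and the edgeR log2 fold change came to -0.10 ± 0.07 (SE) at an edgeR Benjamini-Hochberg adjusted p of 0.316. *Six3*, which acts in forebrain and lens, had 39, 40.4 and 39.4 CPM against 42.7, 37.5 and 36.9 CPM, at a log2 fold change of 0.03 ± 0.08 (SE). *Six5*, a gene next to the myotonic dystrophy kinase gene, had 17.3, 17.1 and 18.4 CPM in the GFP group and 15.1, 14.6 and 16.5 CPM in the Ezh2 group. Its groups did not overlap, and its log2 fold change was -0.24 ± 0.10 (SE) at an adjusted p (edgeR) of 0.116. *Six4*, which acts in muscle, ear and kidney development, had a log2 fold change of 0.15 ± 0.17 (SE). *Six2* was not detected.

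The counts of *Six3* and *Six6* carry an added uncertainty, because genes on the opposite strand overlap their exons and whether counting used the strand is not given in the sources used here. *Six3os1*, opposite *Six3*, had 8617 to 10494 counts, more than the 1191 to 1376 of *Six3* itself. Its log2 fold change was -0.24 ± 0.05 (SE) at an edgeR Benjamini-Hochberg adjusted p of 0.00107, so its value was below 0 while that of *Six3* was near 0. *4930447C04Rik*, opposite *Six6*, had 402 to 606 counts and a log2 fold change of -0.50 ± 0.11 (SE) at an adjusted p (edgeR) of 0.00101. Genes opposite *Irx3*, *Irx6*, *Lhx3*, *Pax5* and *Pax8* had at most 13 counts in any library.

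Of the Iroquois genes, which lie in clusters and act in retina and heart, *Irx5* led. *Irx5* (ENSMUSG00000031737, chromosome 8, 92357625 to 92376286, plus strand), a factor of cone bipolar cells, reached 25.9, 23.8 and 26.4 CPM in the GFP group and 26.7, 23.9 and 22.1 CPM in the Ezh2 group. The ranges overlapped and the edgeR log2 fold change came to 0.01 ± 0.09 (SE) at an edgeR Benjamini-Hochberg adjusted p of 0.973. With all 6 libraries its sign turned, at -0.03 ± 0.10 (SE). *Irx3* and *Irx6* were measured at 48 to 114 counts per library, with log2 fold changes of 0.36 ± 0.27 (SE) and 0.14 ± 0.30 (SE). The family median was 0.14, and 0.05 with all 6 libraries. It was 0.028 without Ezh2 replicate 1, 0.255 without Ezh2 replicate 2, 0.268 without GFP replicate 1 and 0.044 without GFP replicate 2, and it fell below 0, to -0.068 and -0.049, when Ezh2 replicate 1 or GFP replicate 2 was left out of all 6. *Irx1*, *Irx2* and *Irx4* were not detected.

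Counting only whether groups overlapped, 2 tested homeobox genes, *Hoxb3* and *Hoxb4*, were higher in each Ezh2 library than in each GFP library of the 5, as were 21.5% of all tested genes. Another 4 genes, *Lhx2*, *Lhx9*, *Pax6* and *Six5*, were lower in this sense, as were 23.4% of all tested genes. These 6 genes kept separate groups when Ezh2 replicate 3 was added, where the shares of all tested genes were 14.6% higher and 19.1% lower. The 2 and 4 of 18 genes are given as a description.

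Related genes outside these families were described from lists drawn up by known biology, with earlier results of these data known. Of 36 other homeobox genes of the retina, 28 were tested and 0 were called by edgeR or DESeq2, with a median log2 fold change of -0.08. At an unadjusted edgeR p under 0.05, 2 of these 28 were higher and 7 lower, where 15.5% and 13.8% of all tested genes were. Of 30 homeobox genes of other families with a Polycomb history, such as *En1* and *Cdx2*, 14 were at 0 in all libraries and 4 were tested. Only *Gbx2* among them, a factor of the midbrain and hindbrain boundary that also acts in amacrine cells, was called higher by edgeR. DESeq2 called 0 of these genes. With all 6 libraries edgeR also called 0, and *Gbx2* was not tested there. *Gbx2* (ENSMUSG00000034486, chromosome 1, 89927956 to 89931179, minus strand) had 1, 2 and 4 counts in the GFP group and 11, 21 and 7 counts in the Ezh2 group. The groups did not overlap, but it passed the low count filter through the Ezh2 libraries alone, so its log2 fold change of 2.60 ± 0.85 (SE) at an edgeR Benjamini-Hochberg adjusted p of 0.0305 is a description. The call was lost when Ezh2 replicate 1 (edgeR adjusted p = 0.0860), Ezh2 replicate 2 (0.393), GFP replicate 1 (0.0683) or GFP replicate 2 (0.0690) was left out. Of 11 measured PRC2 subunits, the overexpressed *Ezh2* was the single gene called, at a log2 fold change of 1.17 ± 0.08 (SE) and an adjusted p (edgeR) of 2.97e-11, and the median over the 11 was -0.02.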

How the data were processed

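RNA-Seq was done on 3 GFP and 3 Ezh2 libraries of stranded total RNA. The table deposited by the authors holds raw read counts per Ensembl gene, without normalization. STAR 2.7.0d and build GRCm38 are named in the submitters' processing notes, and the counting program, annotation release and strand setting are not given in the sources used here. All 6 columns were matched to samples by their labels. GENCODE M21 supplied symbols, biotypes and exon lengths for 55480 of 55573 identifiers.

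Counts passing filterByExpr were scaled with TMM factors and fitted with glmQLFit (robust option) and glmQLFTest (edgeR 4.0.16, R 4.3.3) on group alone. P values were two-sided and adjusted over all tested genes by the Benjamini-Hochberg method, and they measure the spread between these libraries, which may be technical. SE values were taken from the F statistic. CPM used library totals. The fit was tested on simulated counts. The study's exclusion of 1 Ezh2 library was followed, and its identity was inferred from the columns of a heatmap.

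The gene families, the gene lists and the tests were chosen with earlier results of these data known. Genes were named by a rule: homeobox genes called, those with an adjusted p under 0.05 below the fold threshold, the most abundant tested gene of each family, and called genes of the lists. Further homeobox genes were picked for the text with their values in view. The alternatives tried were DESeq2 1.42.0, RLE size factors, no filter, no fold threshold, a replicate block, all 6 libraries and the omission of single libraries. The fit without the robust option, scaling by library totals alone and leaving out libraries from all 6 were added after seeing the data. Values of some single genes are not reported here. Figures were drawn with matplotlib 3.10.9.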

Additional observations from a re-analysis of the deposited data

Results flagged for a closer look

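Ezh2 replicate 3 was not used in the main comparison. Its values exceeded those of every GFP library for 4 of the named genes, which is why they are listed. They were 104.8 CPM for *Ezh2*, 1.5 CPM for *Hoxb3*, 2.31 CPM for *Hoxb4* and 0.195 CPM for *Gbx2*. For *Hoxb4* the margin over GFP replicate 1, at 2.29 CPM, was smaller than the level of a single count. The *Gbx2* value rests on 7 counts, against 1 to 4 counts in the GFP libraries.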

How the results depend on the processing

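Of the 18 tested homeobox genes, 2 were called higher in the 5 libraries. This count was 1 with DESeq2 (which gave no adjusted p for *Hoxb3*), 0 with all 6 libraries, 1 with the replicate block in the 5 libraries, 0 with the replicate block in all 6, and 0 to 2 when single libraries were left out. The count of genes called lower was 0, and it was 1 with no filter, 2 with no fold threshold and 0 to 1 when single libraries were left out. The number of all genes called, 770, was 498 with all 6 libraries, 396 with the replicate block in all 6, 3605 with no fold threshold, and 110 to 794 when single libraries were left out. The median log2 fold change of the 18 tested homeobox genes, -0.048, was -0.082 for the same genes with all 6 libraries. Over the 19 genes tested with all 6 libraries, *Dlx3* included, it was -0.028. This median was -0.080 with the replicate block in all 6, and -0.140 to -0.002 when single libraries were left out. *Ezh2* stayed higher throughout, at a log2 fold change of 1.048 to 1.564, with its edgeR adjusted p reaching 0.0877 when GFP replicate 3 was left out of all 6 libraries. *Irx5* turned from 0.007 to -0.028 with all 6 libraries, with or without the replicate block, to -0.003 with library totals alone, and lay between -0.084 and 0.075 over the alternatives. The cause of these shifts was not tested.

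*Lhx2* and *Pax6* kept a log2 fold change below 0 under all 18 alternatives. With the replicate block, the edgeR adjusted p of *Hoxb3* was 0.121 and that of *Pax6* 0.154 in the 5 libraries. Deviations from the group mean had correlations of -0.0109, -0.0165 and -0.00759 between libraries of replicate numbers 1, 2 and 3. The Ezh2 mean included replicate 3, which stood apart, so these values cannot settle whether equal numbers pair the 5 libraries. Where leaving out a library left 1 Ezh2 library, that library was assumed to vary like the GFP group. Depth limited the undetected genes, in which a decrease could not be measured.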
